A study of Homo sapiens with 2 samples.

Results

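Of the 6373 peaks of the Flag chromatin immunoprecipitation, 2969 covered a transcription start, 46.6% of the list (exact binomial 95% interval 45.4 to 47.8). They were chosen from the deposited annotation as the peaks placed in a promoter within 1 kb whose distance to the annotated start was 0, so the start lay between the first and the last base of the peak. They made up 60.5% of the 4905 peaks annotated to a promoter, and belonged to 2893 genes. The 1936 other promoter peaks lay beside a start, and 1468 peaks lay outside promoters.

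The material was PLC/PRF/5, a human liver cancer line long kept in culture, given a lentivirus that overexpresses ZFP64, a protein with zinc fingers of the kind that bind DNA. The 1 Flag ChIP library came from sonicated nuclei taken down by an antibody to Flag, a short peptide tag, and the 1 input library came from the same kind of cells with no antibody. Both groups carry the overexpression, and the construct of the tagged protein was not described in the labels. No Flag ChIP from cells without the tag was analysed here, so signal of ZFP64 and nonspecific signal of the antibody cannot be told apart at any peak. There was no replicate of either library. The authors gave each peak its fold, p-value and q-value. Peaks are not replicates of each other, and the intervals below cover counting error, or how single peaks vary, only.

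A transcription start is the base at which RNA polymerase begins a transcript, and the promoter around it gathers the general transcription machinery. Many human promoters sit in CpG islands, stretches rich in G and C in which the CG dinucleotide has been kept, and these often start transcripts in both directions. In ChIP sequencing, a peak is a stretch where immunoprecipitated fragments pile up over the background. The summit is the base of the highest pile, and the fold is the ratio of that pile to the background expected there.

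The promoters of KMT2A and ZFP64 are shown because their peaks had the 2 highest folds. KMT2A encodes a methyltransferase of histone H3, and its window was chr11:118436242-118436491 on the plus strand. The ZFP64 window was chr20:52191780-52192029 on the minus strand. Both are the 250 bases before a RefSeq start in GRCh38.p14, written 5′ to 3′, and the capitals mark the longest run that the windows share on either strand.
KMT2A: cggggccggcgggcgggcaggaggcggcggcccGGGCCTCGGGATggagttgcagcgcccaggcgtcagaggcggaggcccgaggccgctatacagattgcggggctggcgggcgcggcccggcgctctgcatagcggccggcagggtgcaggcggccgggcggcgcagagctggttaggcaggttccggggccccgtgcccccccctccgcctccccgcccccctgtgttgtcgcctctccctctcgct
ZFP64: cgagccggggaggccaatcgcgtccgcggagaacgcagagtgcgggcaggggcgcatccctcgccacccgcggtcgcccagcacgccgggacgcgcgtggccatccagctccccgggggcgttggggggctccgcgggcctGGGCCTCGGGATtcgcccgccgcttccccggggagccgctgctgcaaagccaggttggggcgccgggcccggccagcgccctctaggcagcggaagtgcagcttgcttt
The run of 12 bases stood at −217 to −206 from the KMT2A start and at −109 to −98 from the ZFP64 start. It was present in 7 of 34943 RefSeq promoter windows, and 2 of 1806 windows, 1 for each peak over a start that held a RefSeq start, these same 2, held it. The KMT2A summit lay 158 bp before its RefSeq start and the ZFP64 summit 249 bp after its own, so the run covered neither summit. GC content was 78.4% in the KMT2A stretch and 76.4% in the ZFP64 stretch, with 31 and 33 CG dinucleotides.

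The bases around single summits could be read where a summit lay 31 to 219 bp before a RefSeq start, which held for 287 peaks. From these, the 6 with the highest and the 3 with the lowest folds were taken, and 6 of the 9 stretches are shown to set strong peaks beside weak ones. The KMT2A stretch lies within the window above, and those of SNX12 and HSP90AB1 are not shown. Each has 61 bases with the summit in the middle, read on the strand of the gene (GRCh38.p14, RefSeq). Capitals mark the palindrome CCCGGG or, where it stood, its counterpart GGGCCC, both described further down. CCCGGG was chosen from these same data.
KLHL42 (fold 114, chr12:27780130-27780190, plus strand): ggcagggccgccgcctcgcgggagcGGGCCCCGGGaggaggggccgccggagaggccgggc
HSPD1 (fold 109.8, chr2:197499972-197500032, minus strand): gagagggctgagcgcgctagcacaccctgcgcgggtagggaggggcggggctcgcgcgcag
LOC124903029, at the VSIG10 peak (fold 93.4, chr12:118103728-118103788, minus strand): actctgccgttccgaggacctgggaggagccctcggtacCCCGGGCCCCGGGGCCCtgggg
LRP2 (fold 89.8, chr2:169362597-169362657, minus strand): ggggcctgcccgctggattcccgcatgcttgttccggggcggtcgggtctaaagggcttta
SPTBN1 (fold 3.04, chr2:54558309-54558369, plus strand): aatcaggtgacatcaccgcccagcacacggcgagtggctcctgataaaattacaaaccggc
DUSP15 (fold 2.84, chr20:31870712-31870772, minus strand): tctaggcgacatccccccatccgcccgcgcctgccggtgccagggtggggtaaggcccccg
Marked letters stood in the KLHL42 and VSIG10 stretches, and in none of the other 4. The stretches of KMT2A and SNX12, the highest folds of the set, and of HSP90AB1 held neither word, so 2 of the 6 strong stretches and 0 of the 3 weak ones held them. GC content ran from 88.5% at KLHL42 to 54.1% at SPTBN1, while DUSP15, with the lowest fold of the set, had 75.4%.

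Fold spread widely over the peaks on starts, with a few peaks far above the rest. The median was 8.64 (95% interval 8.39 to 8.91, quartiles 5.67 to 15.4), against 5.64 (5.51 to 5.70, quartiles 4.55 to 7.91) for other promoter peaks and 5.76 for peaks outside promoters. A fold of 10 or more was found in 1252 peaks over a start (42.2%), against 292 other promoter peaks (15.1%) and 27.6% of all peaks. A fold of at least 20 was found in 535 peaks over a start (18.0%), against 70 other promoter peaks (3.62%) and 10.1% of all peaks. A fold of at least 50 held for 118 peaks over a start, against 3 other promoter peaks and 2.02% of all peaks. A fold of at least 100 held for 20 peaks over a start, against 1 other promoter peak and 0.361% of all peaks. Thus 20 of the 23 peaks above 100 lay over a start, and at the low end 73.1% of all peaks and 83.4% of those over a start passed a fold of 5.

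KMT2A stood alone at the top with a fold of 755 over 2806 bp, and ZFP64 followed with 324 over 2173 bp. From there the folds ran closer together. CDIP1, a pro-apoptotic gene downstream of p53, had 195, and APBA2, an adaptor that binds the amyloid precursor protein, had 194. The kinase gene STK24 had 188. ZNF76, a zinc finger activator, had 149, SYNE2, whose product ties the nucleus to the cytoskeleton, had 145, and EOGT, a glycosyltransferase gene, had 144. The sorting nexin gene SNX12 had 136 and PRPSAP1 had 135. The 20th peak had a fold of 102, the 100th 55.99, the 500th 21.1 and the 1000th 12.1.

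**Figure D1:**
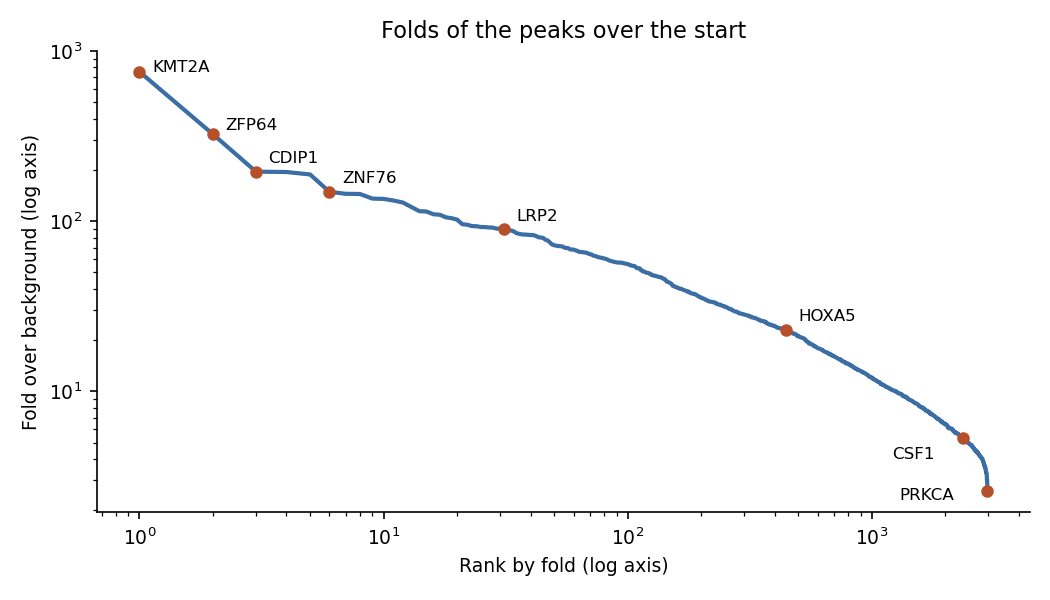
Fold of each of the 2969 peaks over the start, on a log axis, against its rank, also on a log axis. Points mark named genes, with KMT2A at 755 and ZFP64 at 324 above all others and PRKCA last at 2.58.

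At the other end stood PRKCA, which encodes protein kinase C alpha, with 16 ChIP fragments at the summit, against 5.58 expected from the background, and a fold of 2.58. DUSP15, SNX3 and WASL, which encode a phosphatase, a sorting nexin and an activator of actin branching, each had 13 fragments over 3.94 and a fold of 2.84. VWA5B2 had 12 fragments over 3.37 and a fold of 2.97. These 5 backgrounds were above the median background of 2.12 at peaks over a start. CSF1, the growth factor of macrophages, had 13 fragments (exact Poisson 95% interval 6.92 to 22.2) over 1.64 and a fold of 5.30, rank 2351 of 2969. These fragment numbers were recovered from the deposited fold and p-value for 2895 of the peaks over a start. Their median was 26 (quartiles 17 to 46), against 17 (13 to 24) at other promoter peaks, so the depth at a single weak peak rests on few fragments.

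Peaks over a start were wide. Their median width was 741 bp (95% interval 715 to 760, quartiles 488 to 1171, range 263 to 3796), against 424 bp (quartiles 334 to 582) for other promoter peaks and 384 bp outside promoters. A wide peak covers a start more easily, so width is in part set by how the peaks were chosen. Among peaks of up to 350 bp, 19.5% lay over a start, and the share was higher in each wider class, up to 92.4% above 1500 bp. Width and fold also went together, with a Spearman correlation of 0.66 across peaks over a start and 0.602 across other promoter peaks. These are descriptions across peaks of a single pair of libraries, in which width and fold come from the same fragments.

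Set beside other promoter peaks of like width, the gap in fold was small. In peaks of up to 350 bp the median fold was 4.80 over a start, against 4.72 in other promoter peaks. At 501 to 700 bp it was 8.001 over a start, against 7.56 in other promoter peaks, and at 1001 to 1500 bp 12.1 over a start, against 11.4 in other promoter peaks. Above 1500 bp it was 22.2 (95% interval 19.5 to 24.1) over a start, against 20.2 (14.9 to 23.5) in other promoter peaks. The median over a start was the higher in all 6 width classes, by 0.079 to 1.99, against 3.004 without regard to width, and the intervals of the paired medians overlapped in 5 of the 6, the exception being 351 to 500 bp. Peaks outside promoters were fewer at large width, and their median fold at like width was above that over a start in 4 of the 6 classes. It was 4.80 over a start, against 4.85 outside promoters, up to 350 bp, and 5.83 over a start, against 6.07 outside promoters, at 351 to 500 bp. At 501 to 700 bp it was 8.001 over a start, against 8.50 outside promoters, and at 1001 to 1500 bp 12.1 over a start, against 16.3 in 30 peaks outside promoters. What part of the difference in fold belongs to width and what part to position was not tested.

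**Figure D2:**
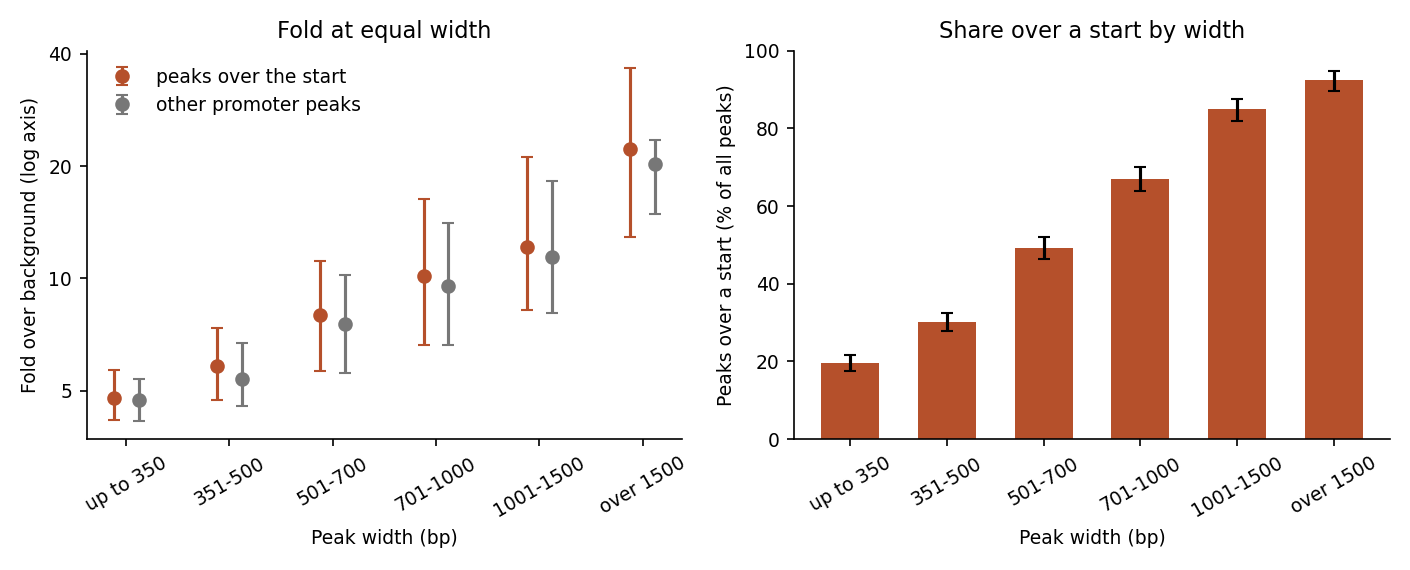
Left, median fold (log axis) with quartiles as bars in 6 classes of peak width, for peaks over the start and other promoter peaks. Right, the percentage of all peaks of each class that lay over a start, with exact binomial 95% intervals. The paired medians lie close together in every class while the share over a start goes from 19.5% to 92.4%.

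The widest peak over a start, 3796 bp, belonged to the long noncoding RNA gene LINC01126, with a fold of 19.97. CPEB2, which encodes a regulator of mRNA translation, had 3416 bp and a fold of 31.1, and the noncoding MGC12916 had 3408 bp and 20.7. The peak annotated to the microRNA gene MIR4466 was 3349 bp wide with a fold of 35.4, and it also held a RefSeq start of ARID1B, a subunit gene of the SWI/SNF chromatin remodeller. LRP2, the gene of the endocytic receptor megalin, had 3324 bp and a fold of 89.8. The narrowest, all 263 bp, were at DGCR8, a microRNA processing gene, with a fold of 5.86, at API5, an apoptosis inhibitor gene, with 5.27, and at TRIOBP with 4.97. The RefSeq start under the last of these was that of NOL12.

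Summits lay mostly a little inside the gene. The median summit was 131 bp downstream of the annotated start (95% interval 121 to 140, quartiles −47 to 267). In 2102 peaks (70.8%, 69.1 to 72.4) the summit was downstream, in 863 (29.1%) upstream, and in 4 on the start itself. Counted by 50 bp, the fullest stretch was 200 to 250 bp downstream with 289 summits, and the 3 stretches between 50 and 200 bp held 255 to 284 each. The 50 bp before the start held 130. Within 100 bp on either side lay 23.5% of summits, within 250 bp 62.6% and within 1000 bp 98.2%.

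The reach of the peaks was as lopsided as the summits. The median peak extended 199 bp upstream and 484 bp downstream, and a median 71.9% of its width was downstream. The position 200 bp into the gene was covered by 86.5% of the peaks and the position 200 bp before it by 49.9%. At 500 bp the shares were 48.0% downstream and 21.8% upstream.

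**Figure D3:**
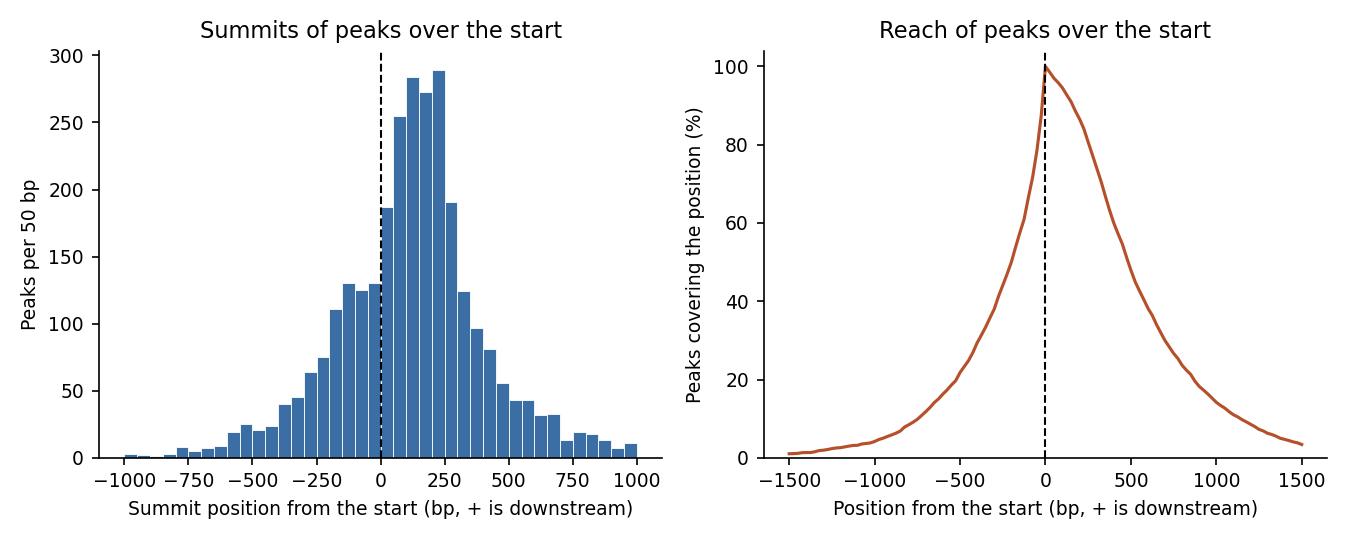
Left, number of summits in each 50 bp from 1000 bp upstream to 1000 bp downstream of the annotated start (dashed line). Right, percentage of the 2969 peaks that cover each position. Summits are densest 50 to 250 bp downstream, and coverage is 86.5% at 200 bp downstream and 49.9% at 200 bp upstream.

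The strongest peaks had summits on both sides. CDIP1 (798 bp), EOGT (672 bp), SYNE2 (671 bp), STK24 (541 bp), ZFP64 (249 bp), ZNF76 (232 bp) and APBA2 (129 bp) had theirs downstream. KMT2A (−156 bp), SNX12 (−71 bp) and PRPSAP1 (−427 bp) had theirs upstream. The RefSeq start under the PRPSAP1 peak was that of SPHK1, a sphingosine kinase gene. Under the ZNF76 peak it was that of SCUBE3-AS1, and under the EOGT peak that of EOGT-DT.

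In 4 classes of fold of about equal size, low to high, the median offset was 78, 113, 162 and 223 bp downstream, while median width was 440, 606, 855 and 1275 bp. A wide peak leaves more room for a summit away from the start, and the distance of the summit from the start had a Spearman correlation of 0.369 with fold. The part of width in the larger offsets was not tested.

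The summits farthest from the start lay in wide peaks, from 2309 to 3796 bp. The farthest upstream, at −1902 bp, was annotated to MIR1469 in a peak that held a RefSeq start of NR2F2, an orphan nuclear receptor gene. GFI1, which encodes a transcriptional repressor of blood cells, followed at −1606 bp and LINC01126 at −1601 bp. Downstream, MIR4466 was farthest at 2520 bp, then ADGRL2, an adhesion receptor gene, at 2357 bp and LRP5, a Wnt co-receptor gene, at 2117 bp.

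The shares of downstream summits by strand depended on which start was used. With the deposited starts, the summit was downstream in 74.1% (71.8 to 76.3) of peaks on plus-strand genes and in 67.4% (64.9 to 69.8) of those on minus-strand genes. In the 1806 peaks that held a RefSeq start, the deposited starts gave 71.7% (68.7 to 74.6) on the plus strand and 66.8% (63.6 to 69.9) on the minus strand. With the nearest RefSeq start, the same peaks gave 69.2% (66.1 to 72.2) and 73.6% (70.6 to 76.5). Peaks were grouped by the strand of the annotated gene in each case, and RefSeq offsets were signed by the strand of the RefSeq start. The order of the strands thus turned round while the majority stayed downstream. The cause was not tested. Only 222 of the 1806 deposited starts (12.3%) equalled a RefSeq start under the same peak, so the exact offset of a summit depends on the annotation.

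At the border of the definition, with the start inside and under 50 bp from an end, 729 peaks had a median fold of 6.83, and with it outside by up to 50 bp, 339 peaks had 6.07. In 20 peaks the start was the first or last base, with a median fold of 7.40, and in 12 peaks it lay 1 bp outside, with a median of 6.37. SEL1L3 (23.1), GDI2 (20.2), a gene of vesicle traffic, and FBXW7 (13.0), a ubiquitin ligase subunit gene, were just inside. ZBED4 (14.4), C2CD2L (13.4) and RABEPK (9.404) were just outside.

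Some peaks held more than one gene start. Of 2844 peaks on chromosomes in the RefSeq promoter table, 1806 (63.5%) held a RefSeq start. In 1482 of these it belonged to 1 gene, in 303 (16.8%) to genes on both strands, and in 21 to further genes on the same strand only. These counts cover RefSeq starts alone. The annotated gene of a peak can be a further gene, as at PRPSAP1 and EOGT, and was not counted then. Head-to-head pairs, in which genes point away from each other, were found in 219 (12.1%). The starts of such a pair were a median 143 bp apart (quartiles 86 to 229), and the summit lay between them in 29 of the 219 peaks (13.2%, 9.05 to 18.5).

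HSPD1 and HSPE1, which encode the mitochondrial chaperonin and its co-chaperonin, shared a peak with a fold of 109.8 and starts 105 bp apart. STK24 and its antisense gene STK24-AS1 shared the peak of fold 188, and BIVM and POGLUT2, a glucosyltransferase gene, shared one of 102. RPS18, a ribosomal protein gene, and VPS52, a gene of vesicle tethering, shared one of 62.5. KITLG, the ligand of the receptor KIT, shared one of 57.6 with a noncoding gene. Peaks over head-to-head starts had a median fold of 10.2 (9.23 to 11.3), against 9.72 (9.23 to 10.2) for peaks with RefSeq starts of 1 gene, so the intervals overlapped. Their median width was 1049 bp (914 to 1142), against 813.5 bp (775 to 848).

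Separately, 75 genes had 2 or more peaks over different annotated starts, and KAZALD1 among them had 3, with folds of 30.5, 16.7 and 5.86. The ratio of the highest to the lowest fold of such a gene had a median of 2.04 (quartiles 1.31 to 3.40, range 1.01 to 38.4), so some had peaks of nearly equal fold. The genes named here are those with the highest folds. ZFP64 had 324 and 8.44, and the weaker peak, over a start farther downstream, had 33 fragments over a background of 3.03. PRPSAP1 had 135 and 5.54. GPRC5C, an orphan receptor gene, had 55.2 and 15.8, and DGKQ, a diacylglycerol kinase gene, had 54.7 and 15.8. RUNX1, a transcription factor gene of blood development, had 41.7 and 9.85, and FAT1, an atypical cadherin gene, had 38.9 and 6.82. SPTBN1, a spectrin gene, had 37.4 at one start and the 3.04 shown above at the other.

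Most of the peaks over a start, 2757 (92.9%), were annotated to protein-coding genes, 167 (5.62%) to long noncoding RNA genes, 26 to microRNA genes and 4 to small nucleolar RNA genes. Of 4383 genes with a promoter peak, 66.0% had a peak over a start, and of 19974 RefSeq protein-coding genes, 13.4% did. The 30 gene families, grouped by symbol, are read against these shares. For all 30 the 95% interval of the share among members with a promoter peak included 66.0%. Many of these intervals were wide, as for respiratory chain genes (4 of 11, 10.9 to 69.2%). No family could thus be told apart from 66.0%, and differences between families are not excluded.

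**Figure D4:**
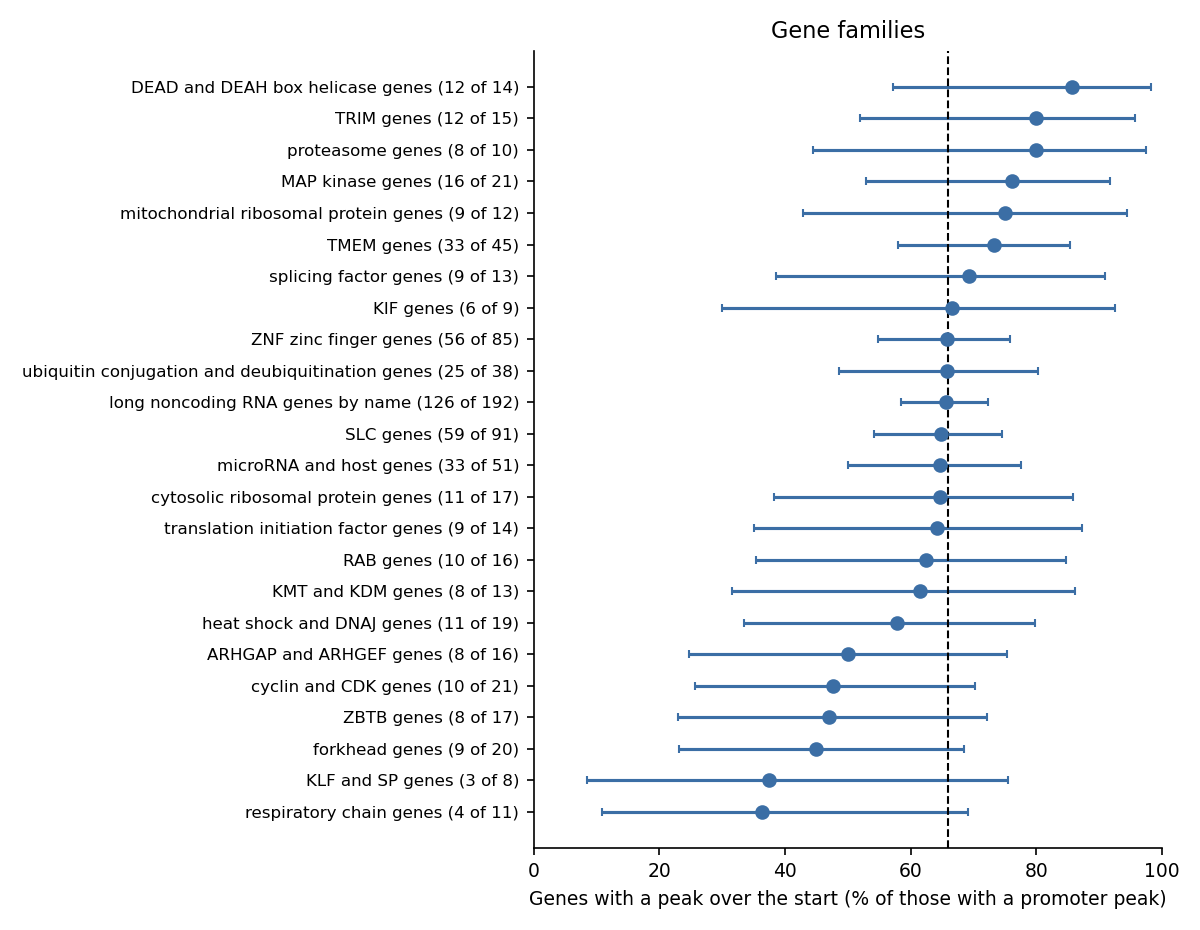
Percentage of the genes of each family with a promoter peak whose start lay under a peak, for the 24 families with 8 or more such genes, with exact binomial 95% intervals. Counts stand beside the names, and every interval crosses the dashed line at 66.0%, the share over all genes with a promoter peak.

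Among families of transcription and chromatin regulators, shares ran from 5.13% to 29.6%. ZNF zinc finger genes had 56 members over a start of 85 with a promoter peak and 509 in all, 11.0% of the family (8.42 to 14.0), against 13.4% of protein-coding genes. Their median fold was 8.09, and ZNF76 (149), ZNF777 (91.9) and ZNF629 (77.8) led them. Lysine methyltransferase and demethylase genes had 8 of 27 (29.6%, 13.8 to 50.2), and 61.5% of the 13 with a promoter peak, with a median fold of 15.9. KMT2A was followed by KMT2B at 32.5, another methyltransferase of histone H3, and by the demethylase gene KDM2A at 21.5. Forkhead genes had 9 of 52, with FOXJ1, the regulator of motile cilia, at 18.3. ZBTB genes had 8 of 42 with folds up to 12.6, and KLF and SP genes had 3 of 27, SP3 being highest at 16.6. HOX genes had 2 of 39, HOXA5 at 23.1 and HOXC4 at 14.8.

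Among genes of signalling and protein turnover, MAP kinase genes had the largest share of any family. They had 16 of 43, or 37.2% (22.98 to 53.3), against 13.4% of protein-coding genes. Their median fold was 10.3, with MAP2K1, which encodes the kinase MEK1, at 45.8 and MAP3K20 at 39.5. Ubiquitin conjugating and deubiquitinating genes had 25 of 110 (22.7%, 15.3 to 31.7), and 65.8% of the 38 with a promoter peak, with a median fold of 11.0. USP36, a nucleolar deubiquitinase gene, had 61.4 and UBE2N, which builds lysine-63 chains, had 44.3. Proteasome genes had 8 of 50, and PSMD4, a ubiquitin receptor of the proteasome, was highest at 33.6. Cyclin and CDK genes had 10 of 46, led by CCNY at 52.8, and TRIM genes had 12 of 77 with folds up to 17.5.

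Families of housekeeping genes had shares from 4.94% to 22.6%. Cytosolic ribosomal protein genes had 11 of 77 (14.3%, 7.35 to 24.1) with a median fold of 5.46, and RPS18, in its shared promoter, was the exception at 62.5. Mitochondrial ribosomal protein genes had 9 of 77, with MRPS26 at 18.1, and translation initiation factor genes had 9 of 51, with a median of 4.71. Respiratory chain genes had 4 of 81 (4.94%, 1.36 to 12.2), and COX5A, a cytochrome oxidase subunit gene, was highest at 10.6. RNA polymerase subunit genes had 5 of 33, and all 5 had a fold of at least 10, where 42.2% of all peaks over a start did. The 5 genes are too few to set the family apart. DEAD and DEAH box helicase genes had 12 of 53, with DHX32 at 129 and DDX3X at 21.9. Splicing factor genes had 9 of 71, led by HNRNPF at 20.5. Heat shock and DNAJ genes had 11 of 76.

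Transport, traffic and cytoskeleton genes also had a wide spread of folds. SLC transporter genes had 59 of 386 (15.3%) with a median fold of 10.5, and 32 of the 59 reached 10, where 42.2% of all peaks over a start did. The interval of their share, 11.8 to 19.3%, included 13.4%. SLC16A5, of the monocarboxylate transporter family, had 83.0 and SLC9A7, a sodium-proton exchanger gene, had 71.3. TMEM genes had 33 of 233, RAB genes 10 of 63 and ARHGAP and ARHGEF genes 8 of 62. KIF motor genes had 6 of 39, of which KIF13A had 54.6 and KIF1B, the next, 7.70.

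Several large families that serve single tissues or lie in clusters had few covered starts, and few promoter peaks of any kind. Promoter peaks were found at 1 olfactory receptor, 3 histone, 4 keratin and 4 chemokine and interleukin genes. Olfactory receptor genes had 0 of 390, which allows a share of up to 0.769% by 3 counts of the total and of up to 0.941% by the exact binomial interval, and replication-dependent histone genes had 2 of 69 (2.90%, 0.353 to 10.1). Keratin and keratin-associated genes had 2 of 149, and these were KRT8 at 21.0 and KRT18 at 8.56, the keratin pair of simple epithelia such as liver. Chemokine and interleukin genes had 4 of 76, among them CXCL2 (10.3) and CXCL1 (9.43), attractants of neutrophils, and IL11 (7.79). Outside these families, named long noncoding RNA genes had 126 of 4932 and microRNA genes with their host genes 33 of 1998. Of the 192 and 51 with a promoter peak, these were 65.6% and 64.7%, against 66.0% of all genes with a promoter peak. No share over all noncoding genes was computed to set beside them.

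Promoter windows under the peaks were rich in G and C. A window is the 300 bases from 250 before to 50 after a RefSeq start. In all, 2447 windows lay under a peak over the start. With 1 window for each of the 1806 peaks that held a RefSeq start, they had a median GC content of 72.0% (quartiles 66.0 to 76.7), against 57.3% (46.0 to 66.3) in 32297 windows with no peak at the start. The ratio of observed to expected CG dinucleotides was 0.880 in windows under a peak over the start and 0.505 in windows with no peak. The 139 windows under other promoter peaks had 71.3% GC. They come from the few of the 1936 such peaks that also held a RefSeq start, and the rest have no window here. Composition was thus alike where a RefSeq start lay under a peak, and other promoter peaks as a whole were not compared. By fold class, low to high, the medians were 71.3%, 71.2%, 72.3% and 72.8%. Counting all 2447 windows, the share of windows under a peak was 0.589% at a GC content of 40 to 50%, 7.91% at 60 to 70%, 20.1% at 70 to 80% and 23.9% at 80 to 90%.

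**Figure D5:**
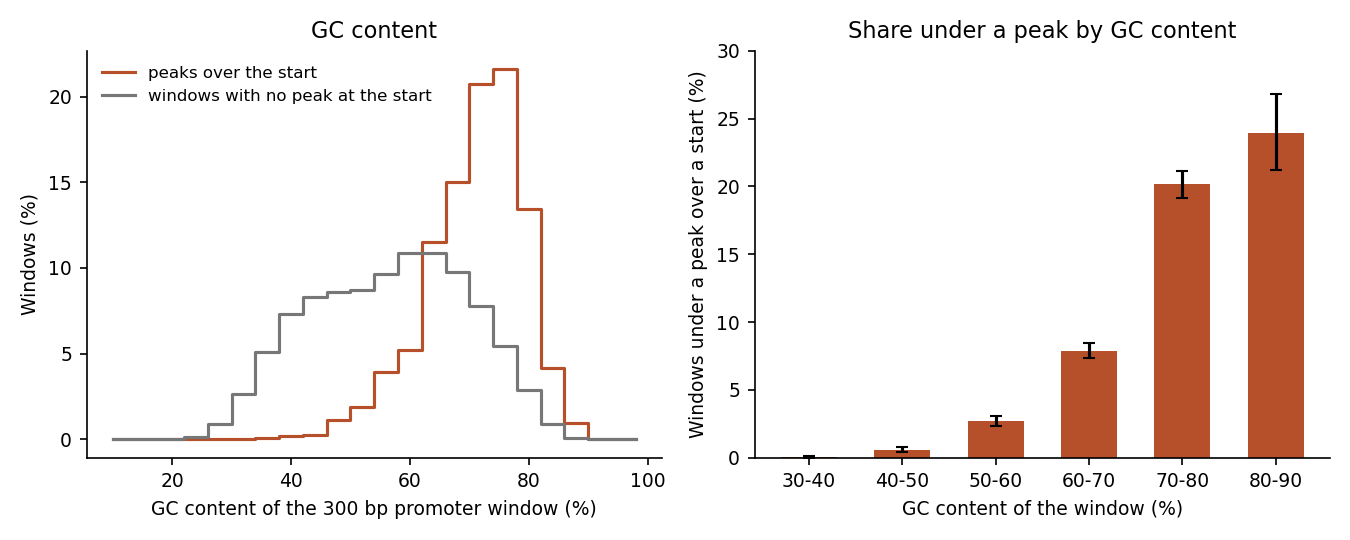
Left, GC content of 300 bp promoter windows under a peak over the start and with no peak at the start. Right, percentage of all windows of each GC class that lay under a peak over the start, with exact binomial 95% intervals. Windows under a peak centre on 72.0% GC, and the share goes from 0.589% at 40 to 50% GC to 23.9% at 80 to 90%.

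Promoter motifs were searched as fixed letters on both strands, and a match is a string, not a bound site. The GC box GGGCGG, the element of SP factors, was in 80.3% of windows under a peak over the start, in 42.0% with no peak and in 44.9% of all windows. At 60 to 70% GC the share was 71.6% (67.6 to 75.4) under a peak, against 66.3% (65.3 to 67.3) with no peak. At 70 to 80% GC it was 90.9% (88.9 to 92.7) under a peak, against 92.3% (91.5 to 93.0) with no peak. Within a GC class the gap was thus smaller, and at 70 to 80% GC the intervals overlapped. The classes match composition only roughly. At 60 to 70% GC the ratio of observed to expected CG was 0.833 under a peak, against 0.755 with no peak. At 70 to 80% GC it was 0.893 under a peak, against 0.889 with no peak. The TATA box TATAAA was in 3.49%, against 12.2% with no peak and 11.6% of all windows. At 60 to 70% GC it was in 3.73% under a peak, against 3.62% with no peak, and at 70 to 80% GC in 2.71% (1.76 to 3.97) under a peak, against 1.76% (1.41 to 2.17) with no peak.

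The CCAAT box, the site of the factor NF-Y, was in 22.8%, against 35.7% with no peak and 34.6% of all windows. At 60 to 70% GC the share was 28.0% (24.2 to 32.0) under a peak, against 34.0% (33.0 to 35.0) with no peak, and at 70 to 80% GC 20.2% (17.6 to 22.9) under a peak, against 25.1% (23.9 to 26.4) with no peak. The core of ETS factor sites, CCGGAA, was in 28.8%, against 16.2% with no peak and 17.2% of all windows. It kept a gap at 60 to 70% GC, with 38.1% (33.9 to 42.3) under a peak, against 26.2% (25.3 to 27.2) with no peak. CCGGAA holds a CG, and the CG ratio was also higher under a peak in that class. At 70 to 80% GC the share of the ETS core was 25.1% (22.4 to 28.1) under a peak, against 23.7% (22.5 to 24.9) with no peak. ACTACAA, part of the ZNF143 site, was at 60 to 70% GC in 6.53% (4.59 to 8.96) under a peak, against 2.68% (2.35 to 3.04) with no peak, and in 2.76% of all windows. At 70 to 80% GC it was in 2.06% (1.24 to 3.20) under a peak, against 1.28% (0.986 to 1.64) with no peak. Over all GC contents it was in 3.599% under a peak, against 2.73% with no peak.

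The other 5 fixed words were the CACCC box CCACCC, the E box CACGTG, the YY1 core GATGGCG, the NRF1 element GCATGCG and the cAMP response core TGACGTC. The CACCC box was in 40.8% of windows under a peak over the start, against 33.7% with no peak and 34.3% of all windows, and the YY1 core was in 5.87%, against 4.07% with no peak and 4.20% of all windows. For the E box the share was 8.25% under a peak, against 7.20% with no peak and 7.23% of all windows. The NRF1 element was in 4.10% under a peak, against 3.87% with no peak and 3.88% of all windows, and the cAMP response core in 3.71% under a peak, against 3.44% with no peak and 3.43% of all windows. At like GC content these values looked different. At 60 to 70% GC the CACCC box was in 39.0% (34.8 to 43.3) under a peak, against 45.7% (44.6 to 46.8) with no peak, and at 70 to 80% GC in 45.3% (42.0 to 48.6) under a peak, against 46.1% (44.7 to 47.5) with no peak. At 70 to 80% GC the E box was in 7.91% (6.25 to 9.84) under a peak, against 10.7% (9.89 to 11.7) with no peak. The NRF1 element was there in 3.58% (2.47 to 4.98) under a peak, against 5.86% (5.22 to 6.56) with no peak. The YY1 core was in 5.42% (4.05 to 7.08) under a peak, against 6.71% (6.02 to 7.45) with no peak, and the cAMP response core in 3.79% (2.66 to 5.23) under a peak, against 5.10% (4.49 to 5.75) with no peak. All 5 words were thus higher under a peak over all windows and lower under a peak in both GC classes, with separate intervals for the CACCC box at 60 to 70% GC and for the E box and the NRF1 element at 70 to 80% GC.

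The palindrome CCCGGG was taken up after the words had been seen in these same data. Its values are thus a description, and they are no support for a role of the word. It was in 57.0% (54.7 to 59.3) of windows under a peak over the start, in 18.1% with no peak and in 20.9% of all windows. In the 139 windows under other promoter peaks it was in 60.4% (51.8 to 68.6). Those 139 peaks also held a RefSeq start, so they cannot show whether the word sets peaks over the start apart. At 60 to 70% GC the CCCGGG share was 47.6% (43.3 to 51.9) under a peak, against 26.0% (25.1 to 26.9) with no peak. The CG ratio also differed in that class, as given above. At 70 to 80% GC the CCCGGG share was 66.0% (62.8 to 69.0) under a peak, against 47.4% (46.0 to 48.8) with no peak. By fold class, low to high, CCCGGG was in 52.7% (47.9 to 57.3), 57.1%, 58.0% and 60.2% (55.5 to 64.7) of windows. The intervals of the lowest and highest class overlapped.

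In the 501 windows that also held the summit, CCCGGG occurred 5.58 times per kb within 50 bp of the summit and 2.93 times per kb beyond 100 bp, a ratio of 1.90. Its counterpart GGGCCC occurred 3.505 times per kb within 50 bp and 1.77 times beyond 100 bp, a ratio of 1.98. For the other 6 palindromes of G and C of the same length the ratio was 0.995 to 1.47. Within 50 bp of the summit, CCCGGG stood in 202 of the 501 windows (40.3%), as at KLHL42 and VSIG10, and it was not in the summit stretches of HSPD1 or LRP2, whose folds were about as high.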

How the data were processed

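One Flag ChIP and 1 input library of PLC/PRF/5 cells were compared through 1 of 4 deposited tables, an annotated list of narrow peaks, and the 3 others, smaller lists and gene identifiers, were not used. Per the submitters' processing notes, which give no roles, the tools were MACS2 2.2.7.1, Bowtie2 2.4.1, deepTools 3.5.0 and SAMtools and the build was hg38. The fold, which is the ratio of ChIP to background signal at a summit, and the p-value and q-value of each peak are as the authors deposited them. Distance to the start, a signed score in bp, and the annotation are the authors' deposited values too, and the annotating tool is not given in the sources used.

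A peak counted as over the start when its class was a promoter within 1 kb and its distance 0. Summit offsets were signed by the strand of the gene, positive downstream. Library totals were not used, and the depth of each peak was taken from its own values. A whole number of fragments was sought that gives both the fold and the p-value under a Poisson model with a pseudocount of 1, which succeeded within 0.001 (−log10 p) for 6293 of 6302 peaks (99.9%). Of the peaks over a start, 65 had a p deposited as 0 and 9 gave no whole number, so 74 have no fragment count.

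Medians have order-statistic and shares exact binomial (Clopper-Pearson) 95% intervals. No test was made, with 1 library per group. Python 3.11.15, numpy 2.4.6, pandas 2.3.3, scipy 1.17.1 and matplotlib 3.10.9 were used, and the calculations were tested on simulated peaks. Promoter sequence and gene tables are RefSeq, GRCh38.p14, and peaks on chromosomes outside that promoter table have no window.

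Members, gene families and motifs were chosen with earlier results of these data known, and family symbol patterns were tightened after their members had been seen. Named genes are the 10 protein-coding peaks of highest fold, the 5 lowest, the 5 widest, the 3 narrowest, the 3 farthest summits each way, up to 3 per family, up to 8 genes with several start peaks, the 3 nearest each side of the border, and CSF1, ZFP64 and PRKCA. Genes named at head-to-head starts, KAZALD1, SPTBN1, and the summit stretches were chosen after their values were seen. Alternatives were limits on fold, q, width, start margin and gene type, the highest peak of each gene, peaks without a high recovered background (over 2 times the median), and the nearest RefSeq start.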

Additional observations from a re-analysis of the deposited data

How the results depend on the processing

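Of 92 alternative values over 23 results, 46 stayed close to the reported value and 46 moved. Only the median summit offset and the gap in fold to other promoter peaks could change sign, and neither did. With a fold of at least 5, the share of all peaks was 53.1%, median width 833 bp, offset 148 bp, summits within 100 bp 19.8%, median fold 10.1, fold of at least 10 in 50.6%, and 30 fragments. With a −log10 q of at least 10, there were 1964 peaks over a start, 61.9% of the list, width 937.5 bp, offset 172.5 bp, 16.5% within 100 bp, fold 12.2, 63.7% at 10 or more, and 37 fragments. With the start at least 50 bp inside both ends, the share was 35.1%, width 847.5 bp, offset 92 bp, 65.4% downstream, 27.6% within 100 bp, 63.5% of width downstream, fold 9.38, 47.1% at 10 or more, a gap of 3.53 to other promoter peaks, and 28 fragments. In peaks of 400 to 800 bp, there were 1191, width 573 bp, 72.7% downstream, 28.0% within 100 bp, 77.0% of width downstream, fold 7.36, 28.2% at 10 or more, a gap of 0.754, against 3.004 over all widths, and 22 fragments. With the highest peak of each gene the share was 51.9%, fold 9.10 and 44.9% at 10 or more. Leaving out peaks with a high background moved none of the 11 values it was run on. In protein-coding genes the share was 48.2% and 72.4% were downstream. With the nearest RefSeq start, chosen after seeing the data, 26.6% lay within 100 bp. Over all windows of the genes, GC content was 68.7%, and 5 of 11 motif shares moved.

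No paired analysis was possible because there is 1 library per group. No peak has a replicate error, and no library was left out. For the families, the members over a start out of all genes are given in the text. The share among genes with a promoter peak is drawn in the figure of the families, which leaves out families with few such genes.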

Other observations

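Peaks over a start were spread over all 23 chromosomes of the list. Over the whole list, 60.5% of promoter peaks lay over a start. Chromosome 19 had the smallest share, 108 of 239 (45.2%, 38.8 to 51.7). It was followed by X with 47.9% (37.5 to 58.4) and 22 with 49.1% (39.6 to 58.7). The largest shares were on chromosome 18 with 70.5% (59.8 to 79.7) and on chromosome 5 with 70.4% (63.8 to 76.5). Median fold over a start ranged from 7.22 on chromosome 7 to 11.4 on X.

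Words of 7 letters were compared between the highest and lowest of the 4 fold classes, 8138 in all. The 10 with the largest difference on odd-numbered chromosomes had a median difference of 11.8 percentage points there and 2.11 points on even-numbered chromosomes, with 6 of 10 in the same direction. The 10 with the lowest difference had a median of −6.98 points on odd-numbered and 1.03 points on even-numbered chromosomes, with 3 of 10 in the same direction. No 7-letter word is therefore named as typical of strong peaks.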
